A study of Mus musculus with 10 samples.

Results

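Serpins are protein inhibitors of proteases, and 9 serpin genes were followed here in mouse melanoma tumors. They are Serpina3f, Serpina3g, Serpina3i and Serpina3n of the Serpina3 cluster, the intracellular serpins Serpinb9, Serpinb6b and Serpinb1a, and the secreted serpins Serpine2 and Serpinf1. The members were chosen by gene symbol, with earlier results of these data known, and matched to Ensembl identifiers. All 9 were present among the 17737 genes of the count table, which also listed 31 other serpin genes. B16-F10, a melanoma cell line of the mouse, was implanted subcutaneously into C57BL/6 hosts, and tumors were collected on day 11. In 5 tumors (WT 2 to WT 6) these cells overexpressed wild-type IL-18. In the other 5 (D69A 1 to D69A 5) they overexpressed IL-18 with alanine in place of aspartate at position 69. IL-18 overexpression was thus common to all samples, and no tumor without it was analysed here. The sources do not say whether either line was 1 clone or whether each tumor came from its own mouse, so the tests rest on sample-to-sample spread that may be technical, and a difference between the lines cannot be told apart from the substitution.

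A serpin presents a flexible loop as bait. The protease cuts the loop, the serpin refolds, and the protease is held in a covalent, inactive complex. Granule enzymes of killer lymphocytes, lysosomal cathepsins, neutrophil proteases and the plasminogen activators of the matrix are all held in check in this way. Serpinb9 inhibits granzyme B inside the cells that make it or meet it. Serpina3g, also known as Spi2A, inhibits cathepsins and is induced by interferon-gamma. Serpinf1, or pigment epithelium-derived factor, is a serpin fold that has lost inhibitory activity and is known for opposing vessel growth.

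The Serpina3 genes lie in a cluster on chromosome 12 and arose by duplication, so their upstream sequences can be compared letter by letter. The stretches below are shown as a description, and whether they bear on the size of each decrease was not tested. Sequences are from RefSeq (GRCm38.p6, plus strand, 5′ to 3′), which held a promoter entry for 8 of the 9 members. There was none for Serpinb1a. Capitals mark matches to the GAS motif (TTCNNNGAA, the form bound by STAT factors) and to the NF-kB motif, both searched on either strand and not overlapping in these stretches.
Serpina3g, chr12:104236057-104236138: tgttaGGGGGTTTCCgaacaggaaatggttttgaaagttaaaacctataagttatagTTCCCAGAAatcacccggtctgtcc
Serpina3i, chr12:104262963-104263044: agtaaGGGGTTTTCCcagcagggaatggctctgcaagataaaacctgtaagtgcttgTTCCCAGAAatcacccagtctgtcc
Serpina3f, chr12:104214366-104214447: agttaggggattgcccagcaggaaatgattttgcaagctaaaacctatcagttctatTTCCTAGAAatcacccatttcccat
Serpina3n, chr12:104406528-104406609: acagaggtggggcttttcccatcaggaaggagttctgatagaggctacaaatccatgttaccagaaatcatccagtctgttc
The GAS match began 33 bases before the RefSeq start of Serpina3g. In the same neighborhood of letters, it began further before the RefSeq starts of Serpina3i and Serpina3f. For Serpina3g the upstream RefSeq sequence ended at 104236146, but the gene coordinates used below start at 104236245, so this distance depends on the start chosen. Counted from 1 at the 5′ end of the 9 bases, the Serpina3f site carried C5T relative to Serpina3g and still matched. The corresponding bases of Serpina3n carried C3A and did not match. Serpina3g and Serpina3i also held an NF-kB match. Over the aligned stretch, identity to Serpina3g was 81.7% for Serpina3i, 76.5% for Serpina3f and 62.8% for Serpina3n. Among 32851 windows of 250 bases upstream of RefSeq starts, 7.02% held a GAS match and 7.25% an NF-kB match. Matches in duplicated genes are not independent, and a match is a description of letters, not of binding.

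One further stretch belongs to Serpinb9, on chromosome 13, where the capitals mark a match to the ISRE motif (GAAA half-sites 2 bases apart, searched on both strands and found here on the minus strand), the form bound by interferon regulatory factors.
Serpinb9, chr13:33004465-33004524: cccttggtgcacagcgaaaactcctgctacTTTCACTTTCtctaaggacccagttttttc
The match lay 46 to 37 bases before the RefSeq start, and 2.98% of all upstream windows held one. The gene coordinates used below start at 33003250, before this stretch, so by them the match lies inside the gene. The windows of Serpinb6b, Serpine2, Serpinf1 and Serpina3n held no match to GAS, ISRE, NF-kB or AP-1 (TGANTCA), and 6.75% of all windows held an AP-1 match.

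All 9 serpins were lower in D69A than in WT tumors. Levels are in CPM, counts scaled to library size with TMM factors. The test was edgeR's quasi-likelihood test over the 13798 genes that passed a filter on low counts, with Benjamini-Hochberg adjustment and a threshold of 0.05. Of all genes tested, 24.7% were lower and 18.8% higher, 43.5% in all. The members were chosen with earlier results of these data known, so their 9 of 9 beside that background is a description, not a test. By size, 7 of the 9 were lower by at least 4-fold, as were 8.02% of genes tested. The median log2 fold change of the members was -2.31, against 0.0 for all genes tested. In 7 of the 9, every D69A tumor lay below every WT tumor, as it did for 17.4% of genes tested. Serpina3i passed the filter through the WT tumors, where it was higher, so its place in these counts is partly fixed by the filter.

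**Figure D1:**
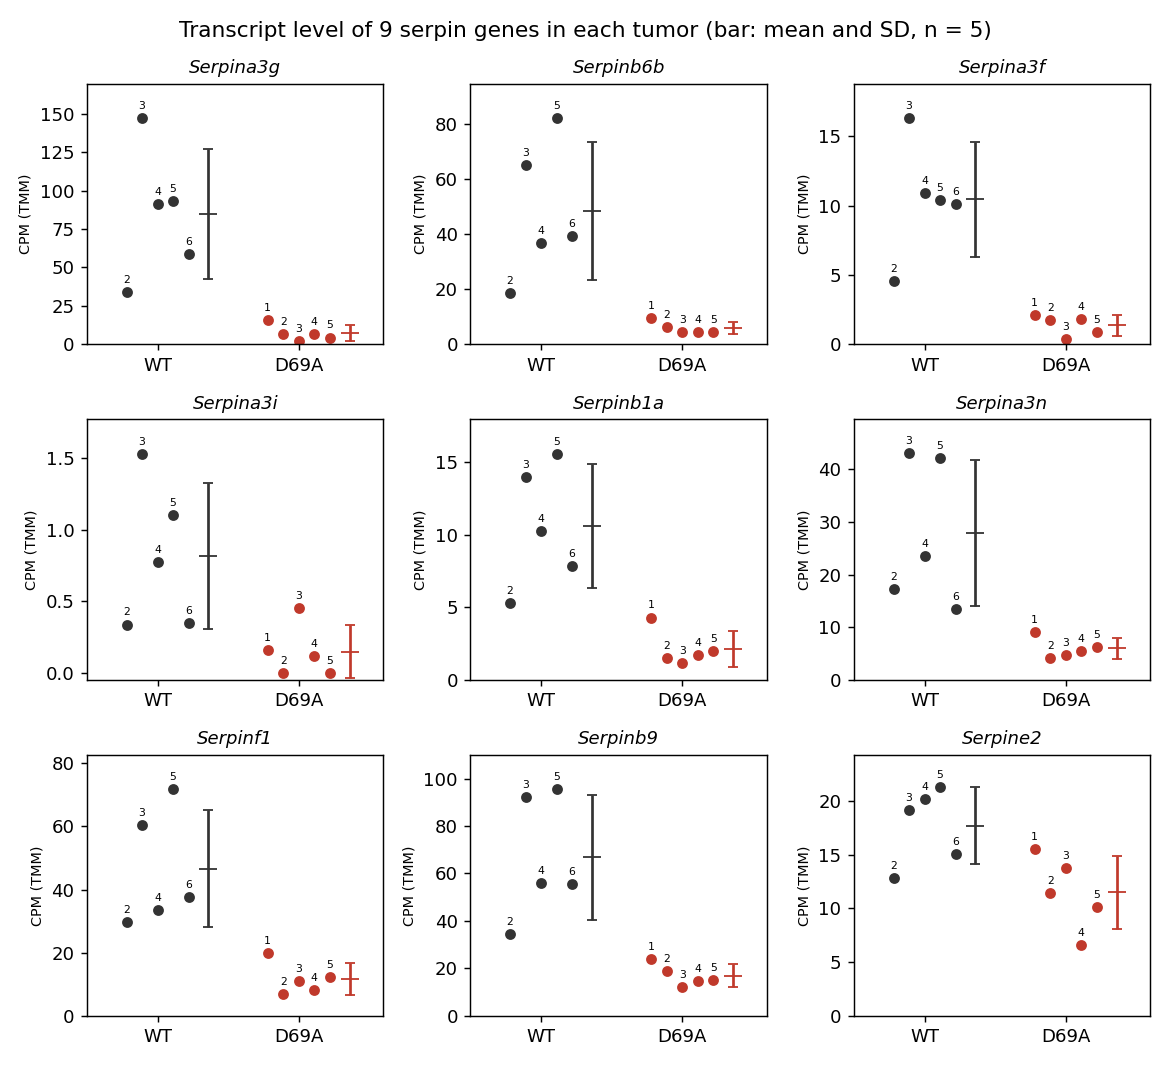
Level of each serpin gene in CPM (linear axis from 0 except for Serpina3i, whose SD reaches below 0) in WT and D69A tumors, with the tumor number above each point and the mean and SD (n = 5) beside it, ordered by fold change. The groups overlap for Serpina3i and Serpine2 only.

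Serpina3g had the largest decrease of the 9. The gene (chromosome 12, 104236245 to 104241939 in mm10) stood at 34.0 CPM in WT 2, 147 in WT 3, 91.1 in WT 4, 93.1 in WT 5 and 58.9 in WT 6. In D69A tumors it stood at 15.5, 6.49, 2.25, 6.72 and 4.23 CPM in tumors 1 to 5. WT 3 was highest and D69A 3 lowest, and the groups did not overlap. The mean went from 84.9 ± 42.5 to 7.03 ± 5.06 CPM (SD, n = 5 each), which was 12.0-fold lower (log2 fold change -3.59, SE 0.52, adjusted p = 0.000728). By fold change it ranked 24 from the lowest among the 13798 genes.

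Serpina3f, the neighbor of Serpina3g (104214544 to 104221129), fell as well. WT 2 to WT 6 had 4.57, 16.3, 10.9, 10.4 and 10.1 CPM, and D69A 1 to D69A 5 had 2.11, 1.7, 0.33, 1.77 and 0.841 CPM. The groups did not overlap, with D69A 3 lowest again. The decrease was 7.72-fold (log2 fold change -2.95, SE 0.46, adjusted p = 0.00096).

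Serpina3i (104263122 to 104269372) was close to the limit of detection. WT tumors 2 to 6 had 13, 56, 29, 41 and 9 counts, and D69A tumors 1 to 5 had 6, 0, 15, 4 and 0 counts. D69A 3, with 0.451 CPM, exceeded WT 2 and WT 6, so the groups overlapped, and the 2 tumors with 0 counts allow up to 3 counts each, 0.0835 and 0.0814 CPM by counting error. The log2 fold change was -2.49 (SE 0.83, adjusted p = 0.0324), and -3.45 without D69A 3. The call was lost without any one of WT 3, WT 4, WT 5, D69A 2, D69A 4 or D69A 5, with adjusted p up to 0.084.

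Serpina3n (104406729 to 104414329), an acute phase serpin induced through STAT3 that inhibits neutrophil proteases and granzyme B, fell less than Serpina3g. It stood at 17.2, 43.0, 23.5, 42.1 and 13.5 CPM in WT 2 to WT 6, and at 9.17, 4.2, 4.78, 5.41 and 6.32 CPM in D69A 1 to D69A 5. No D69A tumor reached the lowest WT tumor, which was WT 6. The decrease was 4.66-fold (log2 fold change -2.22, SE 0.35, adjusted p = 0.00098).

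Reads can be shared within the cluster where transcripts hold the same letters, and the counting rule for such reads is not given in the sources used here. Of windows of 75 bases along the longest coding transcript, 8.9% of those of Serpina3g, 6.9% of Serpina3i, 5.6% of Serpina3f and 1.5% of Serpina3n also occurred in transcripts of another gene, mostly of the same cluster. For Serpina3i, with Serpina3g far above it, this leaves the level uncertain. Among the other members the share was 0.4% for Serpinb1a and 0.0% for Serpinb9, Serpinb6b, Serpine2 and Serpinf1. No member's exons overlapped exons of another annotated gene on either strand.

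The intracellular serpins of lymphoid and myeloid cells fell as well, by unequal amounts. Serpinb6b (chromosome 13, 32965209 to 32979067), which inhibits granzyme A, stood at 18.4, 65.2, 36.6, 82.1 and 39.3 CPM in WT 2 to WT 6 and at 9.57, 6.07, 4.48, 4.32 and 4.45 CPM in D69A 1 to D69A 5. The D69A tumors were tightly grouped except for the higher D69A 1. The decrease was 8.35-fold (log2 fold change -3.06, SE 0.40, adjusted p = 0.000524).

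Serpinb9 (chromosome 13, 33003250 to 33017957) lies close to Serpinb6b on the chromosome and fell less. WT 2 to WT 6 had 34.4, 92.1, 56.1, 95.7 and 55.5 CPM, and D69A 1 to D69A 5 had 24.1, 19.0, 11.9, 14.6 and 14.9 CPM. The groups did not overlap, with D69A 1 nearest to WT 2. The decrease was 3.95-fold (log2 fold change -1.98, SE 0.29, adjusted p = 0.000728).

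Serpinb1a (chromosome 13, 32842092 to 32851185), an inhibitor of neutrophil elastase, proteinase 3 and cathepsin G, was low in all tumors. It stood at 5.27, 14, 10.3, 15.6 and 7.88 CPM in WT 2 to WT 6 and at 4.3, 1.53, 1.14, 1.72 and 1.98 CPM in D69A 1 to D69A 5. D69A 1 stood apart from its group and came close to WT 2. The decrease was 4.95-fold (log2 fold change -2.31, SE 0.40, adjusted p = 0.00131).

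The secreted serpins fell by different amounts (difference of their log2 ratio 1.35, adjusted p = 0.019, exact permutation). Serpinf1 (chromosome 11, 75409769 to 75422701) had 29.6, 60.6, 33.4, 71.8 and 37.6 CPM in WT 2 to WT 6 and 20, 6.79, 10.9, 8.14 and 12.2 CPM in D69A 1 to D69A 5. Its groups did not overlap. The decrease was 4.01-fold (log2 fold change -2.0, SE 0.33, adjusted p = 0.00114).

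Serpine2 (chromosome 1, 79794197 to 79861180), also called protease nexin-1, inhibits thrombin and the plasminogen activators at the cell surface. It had 12.8, 19.2, 20.2, 21.3 and 15.1 CPM in WT 2 to WT 6 and 15.5, 11.4, 13.8, 6.63 and 10.1 CPM in D69A 1 to D69A 5. The groups overlapped, since D69A 1 exceeded WT 2 and WT 6 and D69A 3 exceeded WT 2. The decrease was 1.54-fold (log2 fold change -0.63, SE 0.22, adjusted p = 0.0386). The call was lost without any one of WT 3, WT 4, WT 5, D69A 2, D69A 4 or D69A 5, with adjusted p up to 0.0903.

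Across the 9 genes the same tumors were at the ends of their groups. WT 2 was the lowest WT tumor for 8 members, and WT 6 for Serpina3n. WT 5 was the highest for 5 and WT 3 for 4. D69A 1 was the highest D69A tumor for 8 members, and D69A 3 for Serpina3i. The lowest D69A tumor was D69A 3 for 4 members, D69A 4 for 2 and D69A 2 for 2, and D69A 2 and D69A 5 tied at 0 counts for Serpina3i.

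**Figure D2:**
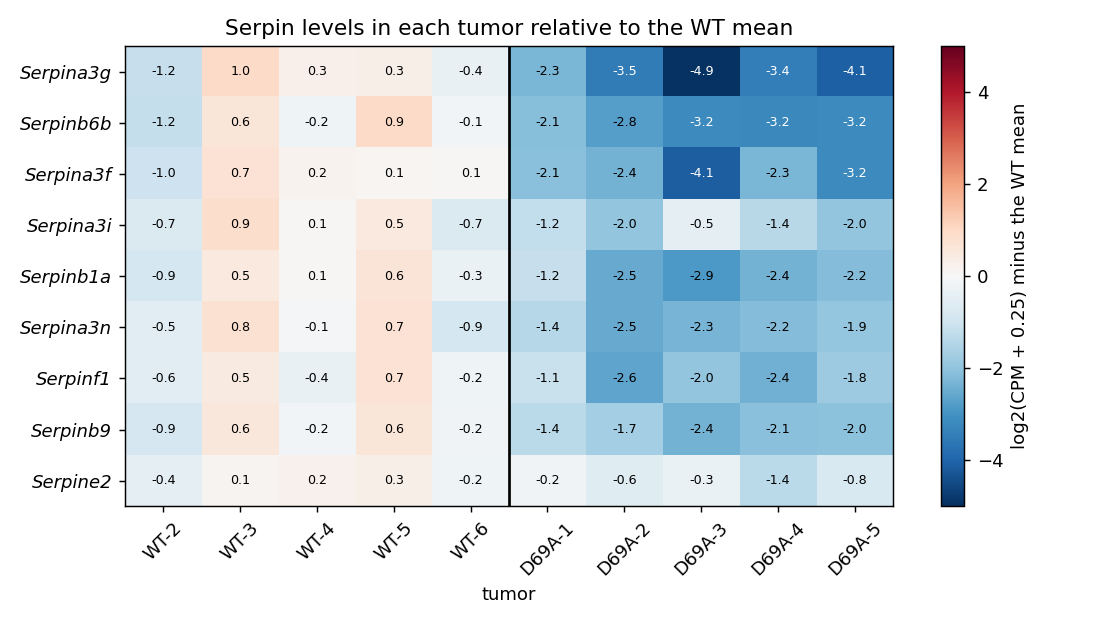
Color and printed value give log2(CPM + 0.25) of each member in each tumor minus the mean of the WT tumors, with WT tumors left of the line and D69A tumors right of it. D69A 1 is the least reduced D69A tumor in every row but that of Serpina3i, and the row of Serpine2 is the palest.

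The cells that could carry these transcripts moved between the groups too. Summed over 5 leukocyte markers, the level was 352 to 950 CPM in WT and 100.5 to 245 CPM in D69A tumors, and all 5 fell. All 9 tested T and NK cell markers fell (42.5 to 128 against 7.82 to 27.4 CPM), as did 7 of 8 macrophage and monocyte markers (695 to 1810 against 480 to 666 CPM) and all 6 dendritic cell markers (74.6 to 238 against 25.8 to 57.9 CPM). Of 8 fibroblast markers 7 fell (2356 to 6031 against 401 to 1420 CPM), and all 6 endothelial markers fell (218 to 288 against 138 to 192 CPM). Both tested neutrophil markers fell, as did all 4 tested mast cell markers and 1 of 2 tested B cell markers. The 4 mast cell genes and the neutrophil gene Retnlg passed the filter on low counts through the WT tumors. The filter thus partly fixed their direction. Summed over all listed markers, tested or not, the 5 neutrophil genes gave 5.92 to 16.9 against 1.56 to 3.69 CPM. The 6 mast cell genes gave 1.58 to 11.1 against 0.306 to 1.68 CPM, and the 5 B cell genes 1.54 to 4.5 against 0.751 to 1.15 CPM. Fcer1a and Ms4a2 of the mast cell list were not tested, with 0 to 5 counts in WT tumors and 0 in D69A tumors. Melanoma markers, the defining genes of the implanted line, were abundant in all tumors (16048 to 19822 against 23503 to 30090 CPM), with 4 of 7 higher in D69A tumors. Skeletal muscle markers ranged from 5.28 to 1360 CPM in WT and from 3.28 to 469 CPM in D69A tumors, and the adjusted p of the 8 genes ran from 0.157 to 0.339. The part of these cells in the serpin decreases was not tested beyond the ratios that follow. In whole tissue, fewer cells of a type and less RNA per cell cannot be told apart.

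Whether a serpin fell by more or less than a marker of such cells was measured as the log2 ratio of the 2 genes in each tumor. Groups were compared by exact permutation, two-sided, with 0.00794 as the smallest p that 5 against 5 tumors can give. The p-values below were adjusted over 18 pairs, of which 10 passed. A pair that did not pass is not shown to have moved together.

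Serpina3g fell by more than the leukocyte gene Ptprc, which encodes CD45. The ratio averaged -0.74 ± 0.26 in WT and -2.18 ± 0.46 in D69A tumors (SD, n = 5 each), a difference of -1.44, lower in 5 of 5 D69A tumors (adjusted p = 0.0238, exact permutation). Serpinb6b fell by more than Ptprc (difference -0.69, 5 of 5 D69A tumors below all WT tumors, adjusted p = 0.0238, exact permutation). The ratio of Serpina3f to Ptprc differed by -0.60 (adjusted p = 0.0816) and that of Serpinb1a to Ptprc by -0.01 (adjusted p = 0.96), neither of which passed the same permutation test.

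Serpinb9 fell by less than its target. Gzmb, which encodes granzyme B, went from 35.6 ± 15.4 to 6.21 ± 2.76 CPM (SD, n = 5 each) and was 5.73-fold lower. The log2 ratio of Serpinb9 to Gzmb rose from 0.93 ± 0.18 in WT to 1.48 ± 0.44 in D69A tumors, by 0.55 (adjusted p = 0.0286, exact permutation), with 4 of 5 D69A tumors above all WT tumors. The call was lost without any one of WT 3 to WT 6, with adjusted p up to 0.0714 and differences of 0.49 to 0.55. D69A 5 had the highest ratio, 2.25, and the other D69A tumors stood at 1.17 to 1.43. Over all tests that left out 1 tumor, the difference ran from 0.35 to 0.62. Serpinb9 relative to Cd8a differed by 0.63 (adjusted p = 0.0816) and relative to Ptprc by 0.29 (adjusted p = 0.0519), and neither passed the permutation test. For the other inhibitor and its target, Gzma was 8.18-fold lower, and Serpinb6b relative to Gzma differed by 0.06 (adjusted p = 0.933, exact permutation).

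The secreted serpins fell by less than fibroblast matrix genes. Col1a1, a collagen chain, was 5.55-fold and Dcn, the proteoglycan decorin, 6.85-fold lower. The log2 ratio of Serpine2 to Col1a1 rose from -5.53 ± 0.44 to -3.57 ± 0.64 (SD, n = 5 each), by 1.95, and that of Serpine2 to Dcn rose by 2.05 (adjusted p = 0.0238 for each, exact permutation). Serpinf1 rose relative to Col1a1 by 0.61 (adjusted p = 0.0238) and relative to Dcn by 0.70 (adjusted p = 0.0286). Relative to the vessel gene Pecam1 it fell by 0.86 (adjusted p = 0.0286, all exact permutation). Serpina3n relative to Col1a1 (0.52, adjusted p = 0.188) and to Dcn (0.62, adjusted p = 0.0714) did not pass. Serpine2 fell relative to the pigment cell gene Pmel by 1.23 (adjusted p = 0.0286, exact permutation) and differed by 0.52 relative to Plau, the urokinase gene (adjusted p = 0.105). The calls for Serpinf1 with Pecam1 and for Serpine2 with Pmel were each lost without WT 3, WT 5 or WT 6, with adjusted p up to 0.0714 and 0.0536.

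**Figure D3:**
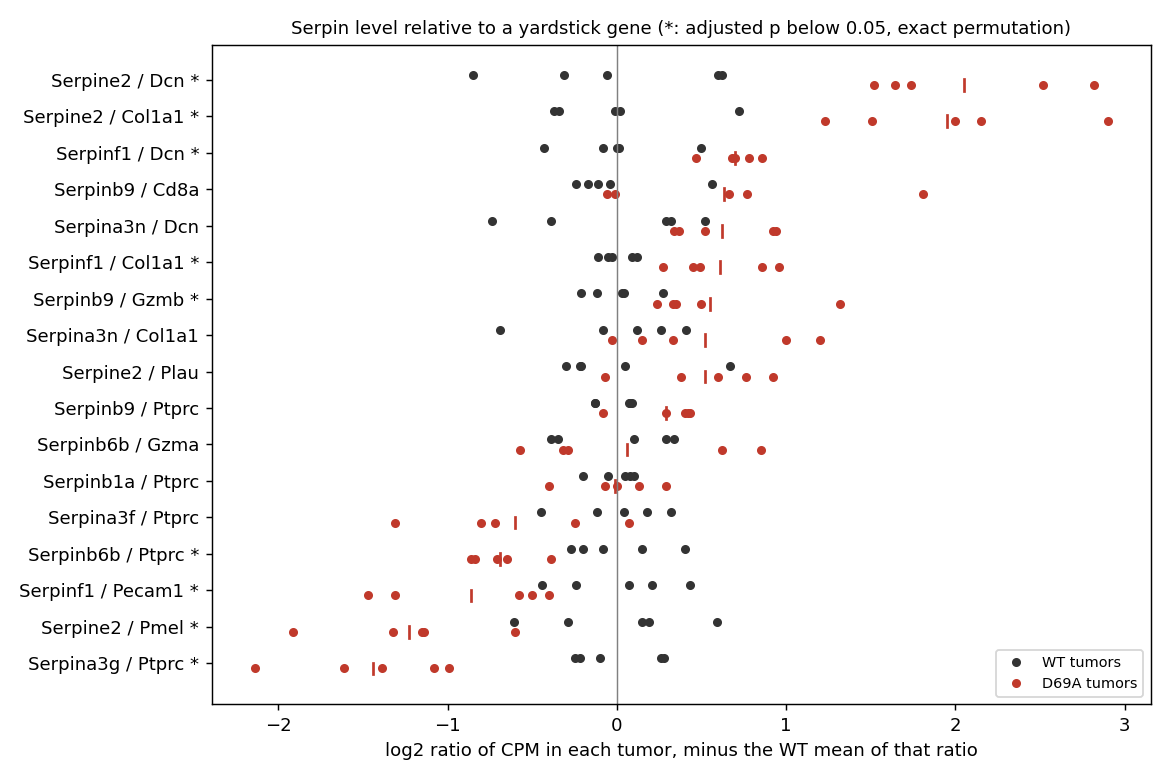
Each row is a pair of genes, and each point is the log2 ratio of their CPM (with 0.25 added to each) in 1 tumor minus the WT mean of that ratio, with a tick at the D69A mean and a star for pairs with adjusted p below 0.05. Serpine2 lies far to the right against both matrix genes, and Serpina3g far to the left against Ptprc.

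The same measure compared the members with each other, over 36 pairs, of which 19 passed the permutation test after adjustment. Serpina3g fell by more than Serpina3n of the same cluster. The log2 ratio went from 1.59 ± 0.50 to 0.02 ± 0.76 (SD, n = 5 each), a difference of -1.57, with 5 of 5 D69A tumors below all WT tumors (adjusted p = 0.019, exact permutation). It fell by more than Serpinb9 as well (-1.73, adjusted p = 0.019) and by more than Serpina3f, which rose relative to it by 0.84 (adjusted p = 0.0301). The call for the pair of Serpina3f and Serpina3g was lost in 6 of the 10 tests that left out 1 tumor, with adjusted p up to 0.0536. Serpinb9 rose relative to Serpinb6b by 0.99 (adjusted p = 0.019), although both are intracellular granzyme inhibitors. Apart from Serpina3i (adjusted p = 0.131), the other 7 members each fell relative to Serpine2 with adjusted p = 0.019. Serpinb9 fell by 1.27 and Serpina3g fell by 3.0 relative to it. All these values are from the exact permutation test. The added 0.25 CPM is of the size of the Serpina3i level, so ratios with Serpina3i understate its change. In edgeR's fit the log2 fold change was -2.49 for Serpina3i and -0.63 for Serpine2. The passing pairs of Serpina3i with Serpina3f, Serpina3g and Serpinb6b carry the same limit.

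In order of fold change the members ran Serpina3g, Serpinb6b, Serpina3f, Serpina3i, Serpinb1a, Serpina3n, Serpinf1, Serpinb9 and Serpine2. Between neighbors in that order, 2 of the 8 pairs passed the permutation test, Serpina3f with Serpina3i and Serpinb9 with Serpine2. For the first of these the added 0.25 CPM is of the size of the Serpina3i level, so the ratio understates the change of Serpina3i. That call was lost without WT 6 (adjusted p = 0.0714).

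Levels can be compared between genes once divided by transcript length. In WT tumors Serpina3g was highest at 47.1 ± 23.6 CPM per kilobase, followed by Serpinf1 (25.4 ± 10.1), Serpinb6b (22 ± 11.5), Serpinb9 (19.2 ± 7.58) and Serpina3n (13.5 ± 6.73). Serpine2 (8.01 ± 1.64), Serpinb1a (5.53 ± 2.21), Serpina3f (4.66 ± 1.85) and Serpina3i (0.371 ± 0.232) followed. In D69A tumors Serpinf1 (6.34 ± 2.82), Serpine2 (5.19 ± 1.55), Serpinb9 (4.86 ± 1.37) and Serpina3g (3.90 ± 2.81) came first, and Serpina3n (2.90 ± 0.945), Serpinb6b (2.63 ± 1.02), Serpinb1a (1.11 ± 0.652), Serpina3f (0.601 ± 0.328) and Serpina3i (0.0663 ± 0.0839) after them (SD, n = 5 each). Most neighbors in this order differed by less than the larger of their SDs. The exceptions were Serpine2 with Serpinb1a in WT tumors, Serpinb6b with Serpinb1a in D69A tumors, and Serpina3f with Serpina3i in both.

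Other serpins fell in part. Of the 31 listed, 10 passed the filter on low counts and 7 of these were lower, against 24.7% of all genes tested. Their median log2 fold change was -0.97. Serping1, the inhibitor of the first complement protease, was 6.81-fold lower (99.0 ± 53.4 against 14.5 ± 7.42 CPM). Serpina3c was 9.70-fold lower, at 1.54 ± 1.34 against 0.155 ± 0.116 CPM (SD, n = 5 each), and its log2 fold change of -3.28 moved to -2.58 without WT 5. Serpina3c (0 to 11 counts in D69A tumors) and Serpinb10 (0 to 10) passed the filter through the WT tumors, so the filter partly fixed their direction. Serpinb8 (1.35-fold), Serpinb9b (1.96-fold), Serpinb10 (3.60-fold) and Serpini1 (1.96-fold) were also lower, with adjusted p from 0.0121 to 0.0332 in edgeR's test. Leaving out 1 tumor ended the call for Serpini1 in 7 of 10 cases (adjusted p up to 0.103), for Serpinb10 in 6 (up to 0.0706) and for Serpinb9b in 4 (up to 0.0604).

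The other 3 serpins did not pass. Serpinh1, the collagen chaperone HSP47, stood at 625.2 ± 63.3 in WT and 686 ± 67.7 CPM in D69A tumors (adjusted p = 0.237). Serpinb6a, a close relative of Serpinb6b, stood at 144 ± 22.1 and 121 ± 7.91 CPM (adjusted p = 0.0676). It passed with upper quartile scaling (0.0441), with library size only (0.033), and without WT 2 (0.0192) or WT 6 (0.0426), and 29.3% of its exon sequence lies opposite exons of other genes. Serpinb2 stood at 21.3 ± 15.0 and 11.2 ± 3.83 CPM (adjusted p = 0.102, edgeR, SD, n = 5 each). Whether the 9 members differ from these serpins as a set was not tested.

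**Figure D4:**
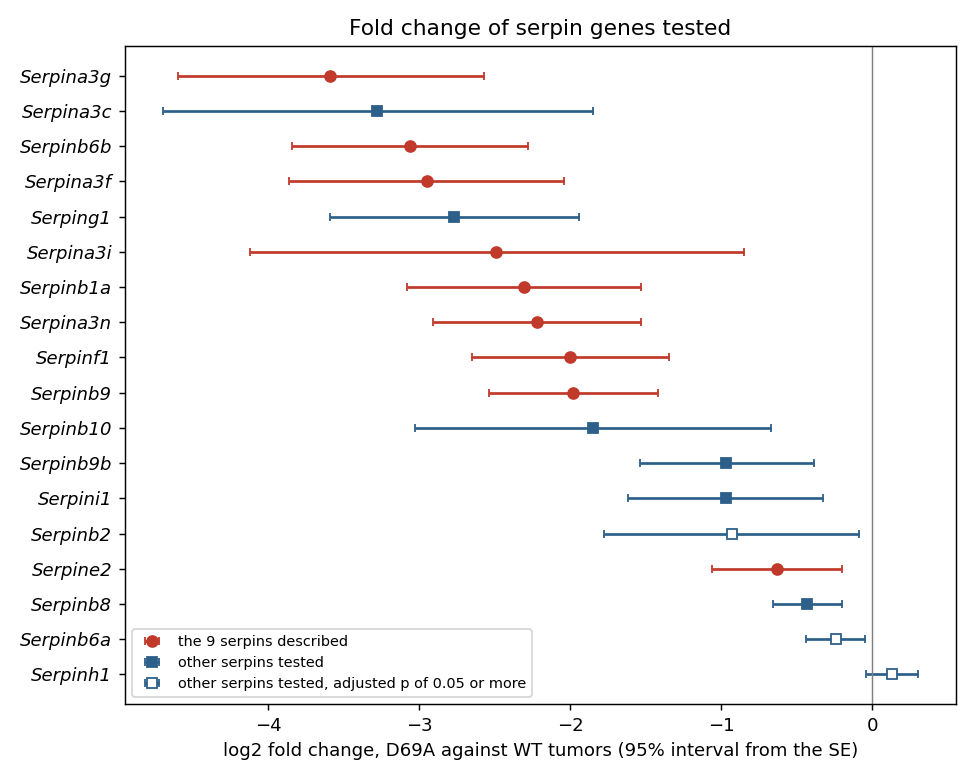
Log2 fold change of D69A against WT tumors for serpin genes tested (points) with a nominal 95% interval of 1.96 SE. Circles mark the 9 members, squares other serpins, and open symbols an adjusted p of 0.05 or more. The intervals are narrower than edgeR's test allows. That of Serpinb2 ends at -0.09, short of 0, although its unadjusted p in that test was 0.0532. Serpinh1 and Serpinb6a lie near 0 and Serpina3g is at the far left.

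Genes of a list of proteases and their partners were mostly lower too. The list holds granzymes, cathepsins, caspases, coagulation and matrix proteases, not all of them serpin targets, and also perforin (Prf1) and the receptors Plaur and F2r, which are not proteases. Of its 36 genes, 33 were listed and 28 tested, of which 24 were lower and 1 higher, with a median log2 fold change of -1.69. Of all genes tested, 24.7% were lower and 18.8% higher, and the list was chosen with earlier results of these data known. Among known targets, the plasminogen activator genes Plau and Plat were 2.35-fold and 2.69-fold lower. The lysosomal cathepsin genes Ctsb and Ctsl, targets of Serpina3g, were 1.45-fold and 1.34-fold lower. Casp1 (4.99-fold), Casp4 (4.88-fold) and the bone and matrix cathepsin gene Ctsk (3.20-fold) had the smallest p-values beside Gzma. Elane, which encodes neutrophil elastase, did not pass the filter on low counts, and Ctsg was not analysed here. The 1 increase was Gzmg, a low granzyme gene (0.175 ± 0.217 against 2.49 ± 3.95 CPM, SD, n = 5 each, adjusted p = 0.048 in edgeR's test). It did not hold in 7 of 10 fits on 9 tumors, with adjusted p up to 0.211 without D69A 2 (log2 fold change 2.05, against 3.75 with it), and with DESeq2 (0.0671) and limma-voom (0.293).

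Genes of cytokine routes known to induce serpins fell in 27 of 33 tested cases, where 24.7% of all genes tested were lower. These lists too were chosen with earlier results of these data known. Of 9 genes of the interferon route 8 fell (median log2 fold change -2.26), with Irf1 3.31-fold, Gbp2 4.92-fold and Socs1 4.78-fold lower. Of 8 NF-kB genes 7 fell (median -1.26), with Tnf 6.19-fold and Ltb 6.21-fold lower but the subunit gene Nfkb2 only 1.81-fold and the deubiquitinase gene Tnfaip3 2.88-fold. Of 16 tested genes of the IL-6 family, STAT3 and the acute phase 12 fell (median -1.25). The oncostatin receptor gene Osmr was 3.99-fold lower, Bcl3 4.03-fold, Il6ra 3.34-fold and Cebpd 2.12-fold, whereas Stat3 itself did not pass (adjusted p = 0.129 in edgeR's test).

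The genes whose levels followed each member most closely from tumor to tumor, once the mean of each group was removed, differed between members. The measure was Pearson's r of log2(CPM + 0.25) over 10 tumors, the 3 highest of 12630 genes were taken, and the values describe these tumors only. Serpina3g was closest to Tap2 (r = 0.987), Tap1 and Gbp5 (both 0.984), the peptide transporter genes and an interferon-induced GTPase gene. Serpina3f was closest to the interferon-induced GTPase genes Ifi47 (0.981) and Iigp1 (0.973) and to Syne3 (0.972). Serpinb9 was closest to Pim1 (0.995), Vav3 (0.994) and Rftn1 (0.987), and Serpinb6b to Fndc7 (0.995), Rgs16 (0.989) and the Y-linked Kdm5d (0.987). Serpinb1a was closest to Ly6a (0.99), Arhgap22 (0.986) and Pak1 (0.985). Serpinf1 was closest to the mesenchymal factor gene Prrx1 (0.995), the collagen gene Col1a2 (0.991) and Daglb (0.991). Serpina3n was closest to the matrix protease gene Mmp3 (0.978), Car2 (0.972) and Rcsd1 (0.964). For Serpine2 (Nudt17, Nfkb1 and P2ry10) and Serpina3i (Acaa1a, Naa60 and Itgb5) the highest r was 0.927.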

How the data were processed

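RNA from 10 tumors, 5 a group, was sequenced. The deposited table holds read counts per Ensembl gene, whole numbers not scaled between tumors. Per the submitters' processing notes, fastp, HISAT, Bowtie and RSEM and the build mm10 were used. Neither their roles and versions nor the annotation or strandedness is stated there. RSEM gives estimates, so counts may be rounded and reads of near-identical genes split. Totals ran from 25904345 to 37578722 per tumor, and 3 counts came to 0.0775 to 0.115 CPM. These floors reflect counting error alone. Tumors within a group all differed by more than sampling noise (chi-square per degree of freedom at least 13.9).

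Symbols and coordinates came from GENCODE mouse release 21 (same build). Of the identifiers, 17670 had a symbol and 67 had none. Genes were filtered with filterByExpr (minimum count 10), scaled by TMM and tested with edgeR 4.0.16 in R 4.3.3. SEs were derived from the F statistic. Ratios used log2(CPM + 0.25). The test was also run on simulated counts, and that outcome is not reported here. The members and lists were chosen with earlier results of these data known. Named were all members, serpins past the threshold and up to 5 others tested, the 4 smallest p-values of each other list, known targets of members, yardstick genes and the 3 genes most like each member. Gzmg and Stat3 were named after their values were seen. Alternatives were DESeq2 1.42.0, limma-voom (limma 3.58.1), other scalings, filters and thresholds, a block for replicate number, and fits without single tumors. Some genes that these rules name are counted in the totals but not reported here by name or in figures.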

Additional observations from a re-analysis of the deposited data

Results flagged for a closer look

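Serpinb1a was flagged because 1 D69A tumor stood far from the rest of its group. D69A 1 had 4.3 CPM, and the nearest tumor, D69A 5, had 1.98 CPM in a group that went down to 1.14 CPM. This was the only such case in 38 groups of values examined, and chance flags about 1 in 20 groups. The same tumor had the highest summed leukocyte markers of its group (245 CPM) and the highest skeletal muscle markers (469 CPM), and their part in the value was not tested. Without D69A 1 the log2 fold change of Serpinb1a was -2.72, against -2.31 with it.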

How the results depend on the processing

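Over 22 alternatives to the test across all genes, 7 of the 9 members kept their direction and their call, and the number of members past the threshold ran from 7 to 9. Serpina3i and Serpine2 lost the call in 9 alternatives each. They had adjusted p = 0.106 and 0.86 in the test against a fold of 1.5, and 0.184 and 0.0937 without WT 3, WT 4 and D69A 1. The count over all genes was 6004, and 1860 in the test against a fold of 1.5, 3651 at an adjusted p of 0.01 and 4966 to 6460 when 1 tumor was left out. For other serpins the count was 7, and 11 with DESeq2, 4 with a minimum of 1 CPM in 5 tumors, 2 against a fold of 1.5, 2 at an adjusted p of 0.01, 3 without WT 3, WT 4 and D69A 1, and 3 to 8 when 1 tumor was left out. It was 3 to 4 without WT 3, WT 5 or D69A 3. For target proteases the count was 25, 15 against a fold of 1.5 and 21 to 25 when 1 tumor was left out. The count of induction genes stayed at 21 to 28. Leaving out 1 tumor gave 14 to 19 pairs within the family and 7 to 11 with other genes. Without WT 3, WT 4 and D69A 1 both counts were 0. The smallest p those permutations can give is 0.0286, which leaves little room to pass after adjustment, so this 0 says little about the pairs. The ratio of Serpinb1a to Ptprc turned from -0.01 to 0.30 with log2(CPM + 1), where it passed (adjusted p = 0.044, exact permutation). Some other pairs that did not pass above passed in a few of their 12 alternatives. Serpinb9 to Ptprc did so with log2(CPM + 1) and without D69A 1, and Serpina3n to Dcn with log2(CPM + 1) and without WT 2. Serpina3f to Ptprc passed without D69A 4, and Serpine2 to Plau without WT 4. The cause of these changes was not tested.

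Tumor numbers 2 to 5 occur in both groups, and the deviations of same-numbered tumors correlated weakly for 3 numbers and inversely for 1 (r = 0.18, -0.43, 0.20 and 0.17), so the numbers were not taken to pair the tumors. With the replicate number as a block over those 8 tumors, 5619 genes, 9 members and 4 other serpins passed, against 6365 genes, 9 members and 5 other serpins without the block in the same tumors. With the block, Serpinb8 (adjusted p = 0.134), Serpinb9b (0.0753), Serpinb10 (0.0744) and Serpini1 (0.115) did not pass and Serpinb2 did (0.0315). WT 5 alone correlated best with its own number. Depth limits Serpina3i most, with 0 to 56 counts per tumor.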
